A study of Homo sapiens with 4 samples.

Results

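Integrins are the receptors by which an epithelial cell holds on to the sheet of matrix under its basal surface. The part of the integrin family described here was chosen by name: ITGB1, ITGB4, ITGB5, ITGB6, ITGB8, ITGA1, ITGA2, ITGA3, ITGA6 and ITGAV, each through every probe set (a group of short probes for one transcript region) that the platform annotation gives to that single gene symbol. This yielded 30 probe sets of 9 genes, out of 54675 probe sets on the array and 19775 genes with a probe set of their own. ITGB6 gave no value, because each of its 4 probe sets carries another gene symbol as well.

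An integrin is a pair of one α and one β subunit, and both must be made for the receptor to reach the surface. The β1 subunit pairs with α1 or α2 to bind collagens and with α3 or α6 to bind laminins, the main network-forming proteins of the basement membrane. The β4 subunit pairs with α6 alone and ties laminin to keratin filaments in hemidesmosomes. The αv subunit pairs with β5, β6 or β8 to bind matrix proteins that carry the arginine-glycine-aspartate motif, and the pairs with β6 and β8 release TGF-β, a secreted growth regulator, from its latent complex.

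The cells were T84, an established human colorectal carcinoma line that forms a polarised layer, all grown on permeable polycarbonate filters and all transfected with short RNA, so no untransfected group exists. On the 2-miRNA array the transfected RNAs were miR-451 with miR-338-3p, and RNA was taken after 5 days. On the 4-miRNA array the transfected RNAs were that pair together with miR-33a and miR-210, with RNA again taken after 5 days. The amount of short RNA was listed as 15 pmol for every array. The dose of each single miRNA may therefore differ between the 2-miRNA and 4-miRNA arrays. The control arrays held cells given a short RNA with little similarity to human miRNAs, collected after 5 days or after 7 days. miRNAs are short RNAs that lower the level or translation of messenger RNAs through sites matching their seed, bases 2 to 8. Each group had 1 array, so there is no replicate check, no p-value is given anywhere, and a difference compares these arrays and not the conditions.

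The deposited values were intensities with trimmed means of 147 and 150 on the 2-miRNA and 4-miRNA arrays against 76.6 and 74.3 on the day 5 and day 7 controls. Each array was therefore multiplied by a factor (3.39, 3.33, 6.53 and 6.73 in the same order) that set its mean without the lowest and highest 2% to 500. Whether a difference between the miRNA arrays and the controls belongs to the miRNAs or to this difference in brightness cannot be told apart. The highest deposited values were close, at 18739 and 17832 on the miRNA arrays and 18749 and 17966 on the controls. After scaling, the GAPDH 3′ control probe set gave 47742 and 44868 on the miRNA arrays against 84506 and 95935 on the controls. That of ACTB gave 35865 and 35972 against 55077 and 57155. How far this bears on other bright probe sets, such as those of ITGB1, was not tested. Differences are given as log2 of scaled signal plus 32, which understates those of dim probe sets, and a count of genes or probe sets past 2-fold is of log2 differences of 1 or more on this scale. Where one side lay under its array median, such a call supports only the bound given as "at least", which can be under 2-fold. Probe sets were kept if their mean log2 signal lay in the upper part of the array, from the median upwards, or if any single array placed them at or beyond its 75th percentile. Of a gene's kept probe sets the one with the highest mean stood for the gene. All 12 intestinal epithelial markers, EPCAM, CDH1 and VIL1 among them, were at or above the median of every array, with a summed signal from 204001 on the day 5 control to 274136 on the day 7 control. Of 6 endothelial markers 1 was kept (PECAM1, 157 to 239), of 8 fibroblast markers 3 and of 6 leukocyte markers on the array 2, with summed signals of 265 to 435, 509 to 809 and 282 to 446. The ratio of 3′ to 5′ signal is a sign of RNA integrity. For the GAPDH control probe sets it was 0.962 and 0.951 on the 2-miRNA and 4-miRNA arrays and 1.02 and 0.978 on the day 5 and day 7 controls. Both miRNA arrays thus lay slightly below both controls. For those of ACTB it was 2.28 and 1.97 on the miRNA arrays and 2.11 and 2.33 on the controls in the same order, so there the ranges overlapped. In such RNA from whole cultures, more cells of one kind and more RNA per cell cannot be told apart.

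The mature sequences of 3 of the 4 miRNAs were taken from RefSeq (GRCh38.p14) and are shown because they define the groups; capitals mark the seed.
miR-338-3p: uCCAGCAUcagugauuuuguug
miR-210: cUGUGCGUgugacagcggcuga
miR-33a: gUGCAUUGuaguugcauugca
No seed is shared among them. They are encoded at chr17:81125887-81125908 (minus strand), chr11:568112-568133 (minus strand) and chr22:41900949-41900969 (plus strand).

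Of the 30 integrin probe sets, 18 were kept and 12 were not, the latter with no scaled signal above 117 on any array. All 9 genes kept at least 1 probe set: ITGB1 kept 4 of 7, ITGB4 3 of 5, ITGB5 2 of 4, ITGB8 1 of 5, ITGA1 2 of 3, ITGA2 2 of 2, ITGA6 2 of 2, and ITGA3 and ITGAV their single one. The filter used all 4 arrays, and 15 probe sets pass it on the controls alone. The others, 1 each of ITGB1, ITGB8 and ITGA1, passed only through their signal on 1 or both miRNA arrays, so their counts as higher there are no support for a difference.

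The genes with the largest values against the day 5 control were ITGB8, ITGA2, ITGA6 and ITGAV, each at least 2-fold higher on both miRNA arrays. That is 4 of 9 integrin genes on each array, where 8.11% of 12264 genes reached this with 2 miRNAs and 8.03% with 4 miRNAs. None of the 9 was at least 2-fold lower, against 6.37% and 6.7% of all genes. Against the day 7 control, which shares the miRNA arrays, the same 4 were again at least 2-fold higher, beside 6.19% of all genes for the 2-miRNA array and 5.63% for the 4-miRNA array; 0 of 9 were lower, beside 4.03% and 4.15%. Over the 9 genes the median difference from the day 5 control was 0.39 and 0.37, beside −0.16 and −0.15 for all genes. These counts rest on which probe set stands for a gene: with the probe set brightest on the controls in its place, 2 of 9 genes, ITGB8 and ITGAV, were past 2-fold on each miRNA array, beside 7.03% and 6.91% of all genes by that choice, and the medians were −0.32 and 0.07 beside −0.19 and −0.18. With the filter taken from the controls as well, ITGAV alone was left, 1 of 8 genes beside 5.95% and 5.84% of all genes. With each difference centred on a running median over signal, the same 4 genes were past 2-fold, beside 9.31% higher and 4.7% lower over all genes with 2 miRNAs and 9.49% and 4.65% with 4, but the integrin medians were 0.70 and 0.66 and those of all genes −0.06 and −0.03.

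**Figure D1:**
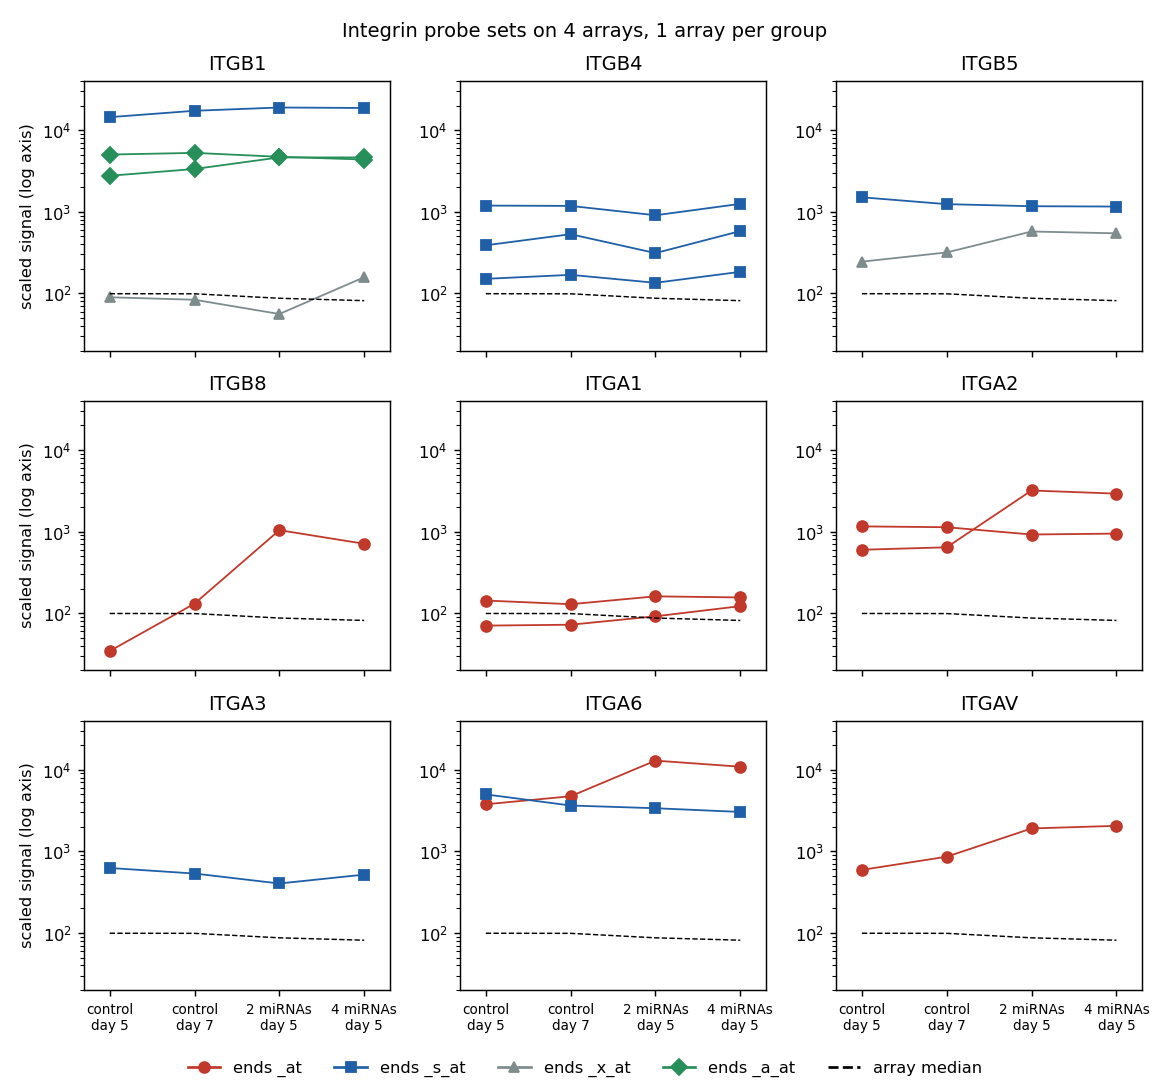
Scaled signal (log axis) of the 18 kept integrin probe sets on each of the 4 arrays, 1 panel per gene, with marker shape and colour for the ending of the probe set name and a dashed line for the array median. Lines only join the values of a probe set. ITGB8, ITGAV and 1 probe set each of ITGA2 and ITGA6 stand well above their control values on both miRNA arrays. The other probe sets of ITGA2 (921 to 1158) and ITGA6 (3040 to 4987) do not. ITGB8 was kept only through the miRNA arrays, and its day 5 value of 34.4 is under the array median. For ITGB5, 214020_x_at had 574 and 545 on the miRNA arrays against 245 and 318 on the controls.

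ITGB1, the β1 subunit shared by the collagen and laminin receptors, was measured by 3 bright probe sets. On 211945_s_at, which stood for the gene, scaled signal was 14443 on the day 5 control, 17284 on the day 7 control, 18952 with 2 miRNAs and 18705 with 4 miRNAs. The day 5 control was lowest, and both miRNA arrays were above both controls, by 0.39 and 0.37 against day 5 and by 0.13 and 0.11 against day 7. These sizes depend on the scaling: quantile normalization gave 0.45 and 0.42 against day 5 and 0.30 and 0.27 against day 7, and running-median centring 0.70 and 0.66 and then 0.50 and 0.46. On 1553678_a_at the values were 2764, 3347, 4639 and 4636 in the same order, a difference of 0.74 from day 5 on both miRNA arrays. On 1553530_a_at the order was the other way, with 5029 and 5272 on the controls against 4718 and 4369 on the 2-miRNA and 4-miRNA arrays (−0.09 and −0.20). The bright probe sets thus gave opposite signs, and none of the 3 reached 2-fold in any comparison.

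The fourth kept ITGB1 probe set, 216178_x_at, was near the array median, with 89.8, 83.7, 56.0 and 158. It was the only integrin probe set at least 2-fold apart between the 4-miRNA and 2-miRNA arrays (1.11, at least 1.59-fold higher with 4 miRNAs when the 2-miRNA value is set to the array median), where 1.07% of probe sets were higher by that much; none of the 18 was lower, beside 1.49%. The 3 ITGB1 probe sets not kept had signals from 1.47 to 86.1.

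ITGB4, the hemidesmosome subunit, had similar values on all arrays. Its brightest probe set, 204990_s_at, gave 1192 and 1181 on the day 5 and day 7 controls, 907 with 2 miRNAs and 1252 with 4 miRNAs. The 2-miRNA array was the lowest of the 4 here, and also on 204989_s_at (389, 532, 312 and 581) and 211905_s_at (151, 169, 135 and 184). All 3 kept probe sets of ITGB4 were therefore lower with 2 miRNAs than on the day 5 control, by 0.38, 0.29 and 0.13 on the log2 scale, and higher with 4 miRNAs than with 2, by 0.45, 0.83 and 0.37.

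ITGB5, a partner of αv in binding vitronectin, was measured by a pair of probe sets that disagreed. On 201125_s_at, which stood for the gene, signal was 1506 and 1241 on the day 5 and day 7 controls and 1171 and 1160 on the 2-miRNA and 4-miRNA arrays, so both miRNA arrays lay below both controls (−0.35 and −0.37 against day 5, −0.08 and −0.09 against day 7, the last 2 turning to 0.04 each with running-median centring). On 214020_x_at it was 245 and 318 against 574 and 545, above both controls and more than 2-fold the day 5 control (1.13 and 1.06). Probe sets ending in _x_at hold probes that also match other sequences, so this signal may not be from ITGB5 alone.

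ITGB8, the αv partner that releases TGF-β from its latent form, had the widest range over the 4 arrays of any integrin gene. Its only kept probe set, 226189_at, gave 34.4 on the day 5 control, 131 on the day 7 control, 1041 with 2 miRNAs and 709 with 4 miRNAs. Every array differed: the day 5 control was under its array median of 99.3, the day 7 control just above its own, and the miRNA arrays far above theirs. Set against that median, signal was at least 8.17-fold higher with 2 miRNAs and at least 5.65-fold higher with 4 miRNAs than on the day 5 control. Against the day 7 control, where both sides were measured, the log2 differences were 2.72 and 2.18. Between the controls the day 7 array was higher by 1.30, which supports at least 1.24-fold and not a 2-fold difference. By the log2 difference alone it was the 1 integrin gene of 9 counted as higher there, where 3.35% of all genes were, and 0 were counted as lower, beside 2.41%. The other 4 ITGB8 probe sets did not follow: with signals from 7.2 to 103 on all arrays they were not kept.

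Among the α subunits, ITGA2, which makes the collagen receptor α2β1, was split between its probe sets. On 227314_at signal was 599 and 642 on the day 5 and day 7 controls and 3188 and 2917 on the 2-miRNA and 4-miRNA arrays. The controls agreed closely and both miRNA arrays were far brighter, 5.1-fold and 4.67-fold over day 5, or 2.35 and 2.22 on the log2 scale. On 205032_at signal was 1158 and 1131 on the controls and 921 and 945 on the 2-miRNA and 4-miRNA arrays, lower by 0.32 and 0.28 on the log2 scale. The first stood for the gene through its signal on the miRNA arrays; on the controls the other was brighter.

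ITGA6, the laminin-binding subunit that pairs with β1 or β4, was split in the same way. On 201656_at signal was 3775 and 4732 on the day 5 and day 7 controls against 12931 and 10889 on the 2-miRNA and 4-miRNA arrays (1.77 and 1.52 against day 5). On 215177_s_at it was 4987 and 3644 against 3375 and 3040, so both miRNA arrays lay below both controls (−0.56 and −0.71 against day 5, −0.11 and −0.26 against day 7). Here too the probe set that stood for the gene was not the one brighter on the controls.

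ITGAV, the common partner of β5, β6 and β8, had 1 probe set, 202351_at, with 593 and 860 on the day 5 and day 7 controls and 1908 and 2054 on the 2-miRNA and 4-miRNA arrays. Both miRNA arrays were well above both controls, by 1.63 and 1.74 against day 5 and by 1.12 and 1.23 against day 7, and the day 7 control was above day 5 by 0.51. All 4 values were above their array medians and the gene has no second probe set, so its call depended on neither the filter on the controls nor the choice of probe set, and no other probe set could check it.

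ITGA1, the other collagen-binding partner of β1, was dim. On 226731_at signal was 143 and 129 on the controls and 161 and 156 on the 2-miRNA and 4-miRNA arrays, all within 0.26 on the log2 scale. On 214660_at, 1 of the probe sets that fail the filter on the controls alone, it was 70.5 and 72.3 on the controls against 91.7 and 122. ITGA3, the laminin-binding partner of β1, gave 626 and 535 on the day 5 and day 7 controls and 404 and 519 on the 2-miRNA and 4-miRNA arrays on 201474_s_at. Both miRNA arrays were below both controls, by 0.59 and 0.26 against day 5 and by 0.38 and 0.04 against day 7, where running-median centring turned the value with 4 miRNAs to 0.07.

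**Figure D2:**
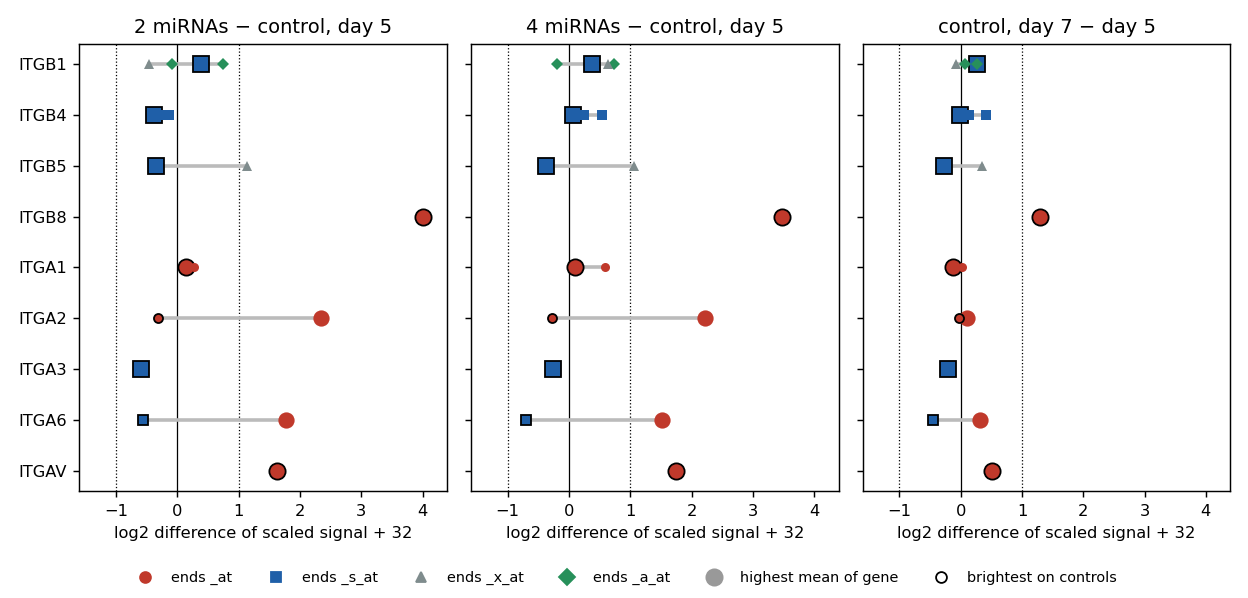
Log2 difference of scaled signal plus 32 (horizontal axis) of each kept integrin probe set by gene, for both miRNA arrays against the day 5 control and for the day 7 control against day 5; large markers had the highest mean of their gene, outlined markers were brightest on the controls, and dotted lines mark 2-fold. In ITGA2 and ITGA6 the large marker (2.35 and 1.77 with 2 miRNAs) and the outlined one (−0.32 and −0.56) lie on opposite sides of 0, whereas between the controls ITGB8 alone passes the dotted line, at 1.30 from a day 5 value under the array median.

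Between the 4-miRNA and 2-miRNA arrays 0 of the 9 integrin genes were past 2-fold in either direction, where 1.04% of all genes were higher and 1.33% lower. The differences ranged from −0.53 for ITGB8 to 0.45 for ITGB4, with a median of −0.02 beside 0.00 for all genes. Of the 4 genes that stood apart from the controls, ITGA2 differed by −0.13 on this pair of arrays, ITGA6 by −0.25 and ITGAV by 0.10. The fourth, ITGB8, had the largest difference of the 9 genes, at −0.53. Between the day 7 and day 5 controls the 9 genes ranged from −0.27 for ITGB5 to 1.30 for ITGB8, with a median of 0.10 beside −0.01. By probe sets, 1 of 18 (that of ITGB8, with the bound given above) was counted as higher on day 7 and 0 as lower, beside 3.83% and 2.92%. Against the day 7 control 4 of 18 were higher with 2 miRNAs (7.26% of all) and 4 with 4 miRNAs (6.49%), the one lost being 214020_x_at of ITGB5, and 0 were lower, beside 3.98% and 4.29%.

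By position, both miRNA arrays lay above both controls for 6 of the 9 genes (ITGB1, ITGB8, ITGA1, ITGA2, ITGA6 and ITGAV), where 22.8% of all genes did. They lay below both controls for ITGB5 and ITGA3, where 41% of all genes did, and for none with running-median centring, beside 32.8%. This, too, rests on the probe set chosen: with the one brightest on the controls 4 genes lay above (ITGB1, ITGB8, ITGA1 and ITGAV, beside 20.6% of all genes) and 4 below (ITGB5, ITGA2, ITGA3 and ITGA6, beside 43.2%), and ITGB8 passed the filter only through the miRNA arrays. Over the 18 kept probe sets 9 were above, 5 below and 4 overlapped, beside 24.5% above and 36.8% below for all kept probe sets. Of the 9 above, 226189_at of ITGB8 and 214660_at of ITGA1 passed the filter only through the miRNA arrays and are no support for a difference.

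Disagreement within a gene was measured for the 6 integrin genes with at least 2 kept probe sets. When a miRNA array was set against a control, it was largest for ITGA2 and ITGA6. ITGB8, ITGAV and ITGA3 have 1 kept probe set each, so theirs could not be measured. Between the 2-miRNA array and the day 5 control, the probe sets of ITGA2 were 2.67 apart and those of ITGA6 2.33, at percentiles 97.9 and 95.9 of this spread among the 5896 genes with at least 2 kept probe sets, whose median was 0.77. For the 4-miRNA array they were 2.51 and 2.23 apart (median of all genes 0.75). Between the 4-miRNA and 2-miRNA arrays the same probe sets were only 0.16 and 0.10 apart (median 0.36), and between the controls 0.13 and 0.77 (median 0.51). Over 1736 genes with exactly 2 probe sets at a mean log2 signal of 9 or more, the SD between probe sets of a gene was 0.58 for each miRNA array against the day 5 control, 0.27 between the controls and 0.19 between the miRNA arrays. This SD measures how far probe sets of a gene disagree, and what the disagreement arises from was not tested. The SD leaves out variation between cultures, which was not measured. The differences of ITGB1 on 211945_s_at (0.39 and 0.37) and of ITGB4 on 204990_s_at (−0.38 and 0.07) from day 5 were within it, although that of ITGB1 exceeded it with running-median centring.

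The kept integrin probe sets were also counted by the ending of their names. A name ending in _at marks probes that match 1 transcript, _a_at several transcripts of a gene, _s_at transcripts that can belong to several genes, and _x_at probes with further matches. Of the kept integrin probe sets, 4 of 7 ending in _at were at least 2-fold above the day 5 control on each miRNA array, as were 0 of 7 ending in _s_at, 0 of 2 in _a_at and 1 of 2 in _x_at. Over all probe sets the shares with 2 miRNAs were 10.1% for _at, 7.83% for _s_at, 6.9% for _a_at and 9.49% for _x_at, against 9.24% in all. Ending and gene cannot be told apart for the integrins, since ITGB8 and ITGAV kept only a probe set ending in _at. That of ITGB8 is 1 of the 4 counted and passed the filter only through the miRNA arrays, as did 1 of ITGA1 ending in _at. Of all kept probe sets 5.89% were at least 2-fold lower with 2 miRNAs, and 0 of the integrin ones were; for the 4-miRNA array the shares were 8.65% higher, with 5 of 18 integrin probe sets, and 6.21% lower, with 0.

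The choice of probe set mattered beyond the integrins. In 556 of the 5896 genes the kept probe set with the highest mean was not the one brightest on the controls. In those 556, the first choice put 143 genes past 2-fold higher with 2 miRNAs and 2 lower, and the other choice 10 higher and 70 lower. The direction of this contrast was fixed by the selection, since the first choice is there dimmer on the controls and brighter on the miRNA arrays. The other choice leans low for the same reason. Over all 12264 genes the change of choice moved the count higher from 995 to 862 and the count lower from 781 to 849. ITGA2 and ITGA6 belong to the 556, while the other 7 integrin genes have the same probe set by either choice.

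**Figure D3:**
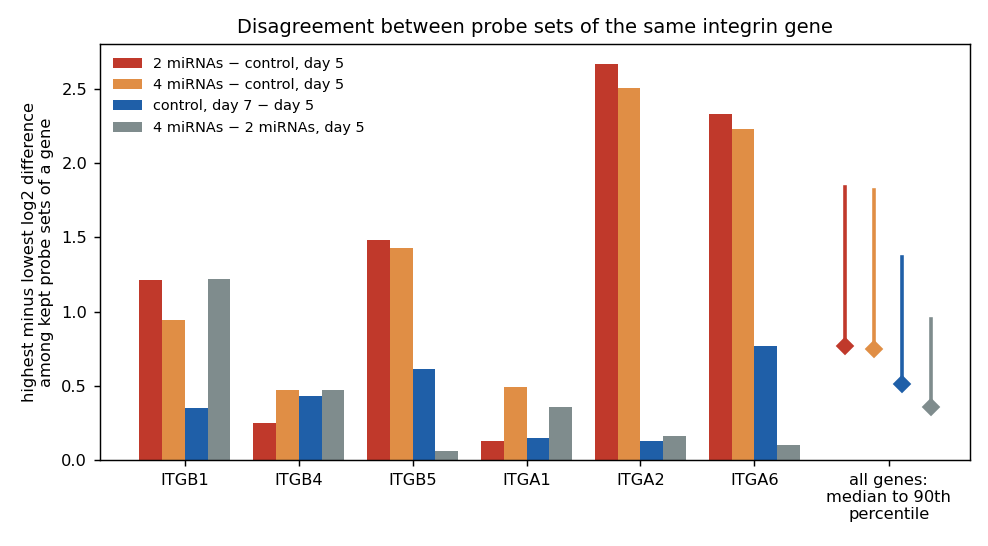
Bars give, for the 6 integrin genes with at least 2 kept probe sets, the highest minus the lowest log2 difference among them in 4 comparisons; diamonds and lines at the right run from the median to the 90th percentile over all 5896 such genes. ITGA2 and ITGA6 exceed the 90th percentile (1.84 and 1.82) in both comparisons of a miRNA array with the day 5 control and not in the others. ITGB1 exceeds it between the 4-miRNA and 2-miRNA arrays (1.22 against 0.95).

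Promoter sequence is shown for the genes with the 2 largest differences, ITGB8 and ITGA2, and for ITGB1, which stayed within 2-fold, so that the starts of these genes can be compared. Each run is the 250 bases before a RefSeq start (GRCh38.p14); capitals mark the GC box GGGCGG on either strand, and no base in these runs lies in ACGTG, the core bound by the hypoxia factor HIF, or in TGANTCA, the AP-1 motif.
ITGB8, chr7:20330650-20330899, plus strand: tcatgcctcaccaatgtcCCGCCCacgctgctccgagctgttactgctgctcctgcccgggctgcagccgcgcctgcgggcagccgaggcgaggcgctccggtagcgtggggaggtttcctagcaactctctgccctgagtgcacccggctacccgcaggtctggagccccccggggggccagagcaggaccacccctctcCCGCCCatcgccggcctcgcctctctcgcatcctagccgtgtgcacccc
ITGA2, chr5:52989102-52989351, plus strand: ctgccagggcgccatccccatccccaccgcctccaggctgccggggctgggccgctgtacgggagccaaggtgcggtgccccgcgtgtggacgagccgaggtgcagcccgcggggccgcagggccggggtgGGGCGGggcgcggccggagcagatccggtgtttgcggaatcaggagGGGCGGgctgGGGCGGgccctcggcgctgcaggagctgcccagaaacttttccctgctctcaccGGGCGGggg
ITGB1, chr10:32958231-32958480, minus strand: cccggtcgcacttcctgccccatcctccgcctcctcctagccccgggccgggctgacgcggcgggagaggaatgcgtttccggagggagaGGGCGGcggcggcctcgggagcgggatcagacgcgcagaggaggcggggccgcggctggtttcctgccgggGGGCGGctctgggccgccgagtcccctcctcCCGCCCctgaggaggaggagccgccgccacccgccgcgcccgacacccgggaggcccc
GC boxes numbered 2 in ITGB8, 4 in ITGA2 and 3 in this window of ITGB1, whose other window, chr10:32935559-32935808, has 0, and 42.5% of 34943 such windows of all genes held at least 1. The printed windows were rich in G and C, at 71.2%, 76.4% and 78.4%, and the other one of ITGB1 was not, at 41.6%, beside a median of 58% over all windows. ITGA6 has 2 windows with 0 and 3 GC boxes and with 2 and 1 matches to ACGTG, which 18.5% of windows hold, and the 2 windows of ITGAV hold none of these motifs. TGANTCA was in 6.59% of all windows and in no window of these integrin genes. The 3 windows of ITGB5 hold 3, 0 and 2 GC boxes and that of ITGA1 holds 0, with no ACGTG in either gene; no window of ITGA3 or ITGB4 was used here.

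Of 16 other members of the integrin family 9 were kept, and none was past 2-fold in either direction with 2 miRNAs, with a median of −0.44; as for the lists that follow, this is to be read beside the 8.11% of all genes higher and 6.37% lower with 2 miRNAs, and 8.03% and 6.7% with 4, so a count of 0 in so few genes is near the background. With 4 miRNAs ITGA11 was at least 1.04-fold higher, ITGA7 at least 1.92-fold lower and ITGB3 at least 1.72-fold lower, all from or to under the array median, and the list median was −0.49. ITGA9 differed from day 5 by −0.09 and −0.49 on the probe set that stood for it. Its other kept probe set gave −1.15 with 2 miRNAs and −1.11 with 4 miRNAs. ITGAE, the αE subunit of intraepithelial lymphocytes, was bright on a single probe set, with 5082 and 3933 on the day 5 and day 7 controls and 2953 and 3050 on the 2-miRNA and 4-miRNA arrays. Of the 6 leukocyte markers on the array PTPRC, CD14, ITGB2 and LST1 were not kept, while CD3E, of T cells, was kept with 123 and 187 on the day 5 and day 7 controls and 106 and 188 on the 2-miRNA and 4-miRNA arrays, and ITGAM with 84.3, 79.0, 50.4 and 113; their part in the result was not tested. ITGA5, the fibronectin receptor subunit, had 134 and 141 on the controls and 160 and 274 with 2 and 4 miRNAs.

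Adaptors link the integrin tail to actin. Of 27 kept adaptor and focal adhesion genes, 1 was at least 2-fold higher and 5 lower with 2 miRNAs (median −0.24), and 2 higher and 1 lower with 4 miRNAs (median −0.07), beside 8.11% of all genes higher and 6.37% lower with 2 miRNAs and 8.03% and 6.7% with 4. NEDD9, a scaffold phosphorylated at focal adhesions, was higher on both (2.26 and 2.30, 4577 and 4702 against 928), but on 1 of its 4 kept probe sets, the others reaching down to −0.30 and −1.83. TNS4, a tensin that binds β1 tails, had 631 and 523 on the day 5 and day 7 controls, 66.6 with 2 miRNAs and 213 with 4 miRNAs, at least 5.56-fold lower with 2 miRNAs and lower by 1.44 on the log2 scale with 4. SRC, the kinase of focal adhesions, was at least 2.17-fold lower with 2 miRNAs, and its other kept probe set gave −0.87. DOCK1 had −1.10 and PARVA −1.07, while the second DOCK1 probe set gave 0.08 and another of the 6 PARVA probe sets reached 1.92. ACTN4, an actin crosslinker, was the other gene at least 2-fold higher with 4 miRNAs (1.04). The talins, kindlin and kinase that activate integrins and pass their signal on were within 2-fold for TLN1 (−0.10 and 0.52), FERMT1 (0.08 and 0.46), PTK2 (0.12 and 0.05) and ILK (−0.85 and −0.62), and TLN2 had −1.02 and −0.66. Between the 4-miRNA and 2-miRNA arrays 22 of the 27 adaptors were higher with 4 miRNAs (median 0.23 beside 0.00 for all genes), SRC at least 2.21-fold and TNS4 at least 2.05-fold. The other kept probe set of SRC gave −0.02 there, and TNS4 has only 1.

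The hemidesmosome had 4 kept genes. PLEC, the plectin that joins β4 to keratins, had 368 and 153 on the day 5 and day 7 controls, 47.5 with 2 miRNAs and 277 with 4 miRNAs, so the controls and the miRNA arrays overlapped. With 2 miRNAs it was at least 3.36-fold lower than on day 5, and with 4 miRNAs at least 2.59-fold higher than with 2. The other kept PLEC probe set gave −1.03 and 0.24 in these 2 comparisons. DST, the epithelial plakin, differed from day 5 by 0.04 and 0.03 on the probe set that stood for it, with others of its 6 from −2.42 to 0.82 with 2 miRNAs, and CD151, the tetraspanin bound to α3 and α6 integrins, by −0.33 and −0.31. None of 8 tetraspanins was at least 2-fold apart from day 5 on either miRNA array (medians 0.16 and 0.04), a count near the shares of all genes given above.

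Laminin chains, the ligands of α3 and α6 integrins, moved both ways. LAMB1 was higher on both miRNA arrays (3237 and 3250 against 1345 and 1722, 1.25 against day 5 on each), though its second probe set gave 0.09 and −0.13. LAMA5 was lower (214 and 225 against 581 and 322, −1.31 and −1.26), and the other 4 kept chains were within 2-fold. Of 8 other matrix genes NPNT, a ligand of α8β1, was at least 2-fold higher with 4 miRNAs (1.30, with 0.94 for 2 miRNAs) and its second probe set gave −0.03. The medians of the laminin and matrix lists were −0.34 and 0.14 with 2 miRNAs and −0.18 and 0.12 with 4 miRNAs.

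For the TGF-β axis served by αvβ8, TGFB1 was within 2-fold (−0.28 and −0.02), as was the latent binding protein LTBP1 (0.25 and 0.48). The receptor TGFBR1 was higher (1303 and 1423 against 432 and 503, 1.53 and 1.65 against day 5), with a second probe set at −0.03 and 0.11. TGFB3 was at least 1.80-fold lower with 4 miRNAs. Among 7 response genes SKIL, a feedback inhibitor of SMAD proteins, was at least 2-fold higher on both miRNA arrays (2.03 and 1.96) and also on the day 7 control (1.68). Of its 3 kept probe sets 2 were past 2-fold with 2 miRNAs, and 1 each with 4 miRNAs and on day 7. The lowest gave 0.99, 0.36 and 0.14. SMAD7, TGFBI, PMEPA1, ID1 and JUNB lay below 0 on both miRNA arrays, though other PMEPA1 probe sets reached up to 0.12 and 0.57. CCN2 differed from the day 5 control by 0.20 with 2 miRNAs, −0.25 with 4 miRNAs and 0.95 on the day 7 control. The list medians were −0.41 and −0.25, beside −0.16 and −0.15 for all genes.

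Of 19 genes that carry integrins between endosomes and the surface, 3 were past 2-fold higher on each miRNA array and 0 lower (medians 0.06 and −0.03), beside 8.11% and 8.03% of all genes higher and 6.37% and 6.7% lower. RAB11FIP1, the effector that recycles α5β1, had 1022 and 1909 on the day 5 and day 7 controls and 4759 and 4885 on the 2-miRNA and 4-miRNA arrays (2.18 and 2.22 against day 5), on 1 of its 3 kept probe sets. ARF6, a GTPase of β1 recycling, was higher by 1.14 and 1.53 on the probe set that stood for it, and 2 of its 4 kept probe sets were past 2-fold on each array. CLIC3 was dim and at least 1.20-fold and 1.26-fold higher. Of 11 genes of integrin maturation and shedding, PCSK7, a proprotein convertase, was at least 2-fold lower on both miRNA arrays (−1.21 and −1.15), against 1.5 and 0.96 on its other probe set. FURIN, the convertase that cleaves α subunits, had 0.30 and 0.71. Of the list genes with several kept probe sets that were past 2-fold with 2 miRNAs, PLEC was the only one with all of them past 2-fold in the same direction. Those of PCSK7 were past it in opposite directions.

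**Figure D4:**
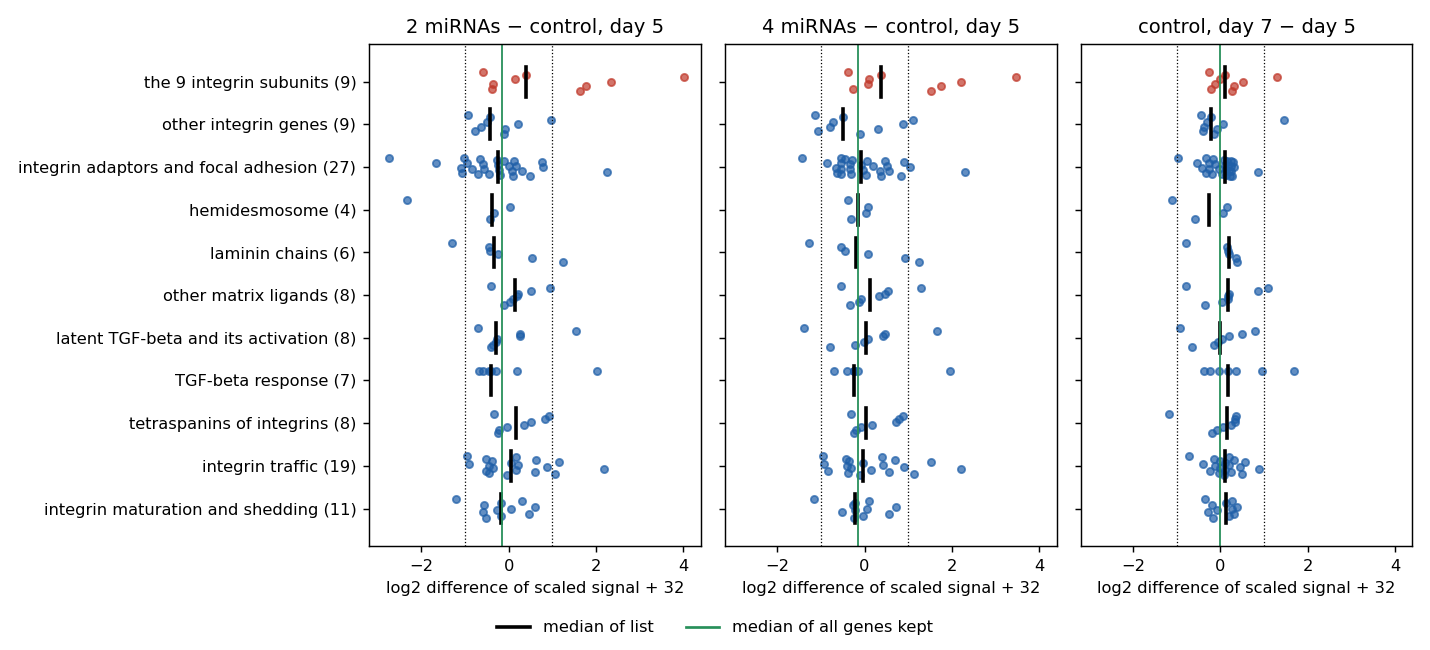
Log2 differences of scaled signal plus 32 for the 9 integrin subunits (red) and for 10 lists of integrin-related genes (blue), 1 point per kept gene with the number of genes in parentheses, in 3 comparisons; black bars are list medians, the green line the median of all genes and dotted lines 2-fold. The integrin subunits have medians of 0.39 and 0.37, their top point being ITGB8, whose day 5 value is under the array median so that only at least 8.17-fold and 5.65-fold are supported, while the medians of the lists lie between −0.44 and 0.16 with 2 miRNAs and between −0.49 and 0.12 with 4 miRNAs.

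Patterns over the 4 arrays were compared by the distance between log2 values centred on each gene's mean, among 10414 genes that no array placed under its median. Nearest to ITGB1 were DSP (distance 0.03), the desmosomal plakin, with 15338 and 18268 on the day 5 and day 7 controls and 19618 and 19810 on the 2-miRNA and 4-miRNA arrays, then ARIH1, B4GALT5 and MUC1 (each 0.04) and RETSAT (0.05). Nearest to ITGB8, the gene with the widest range, were SDHAF3 (0.48), GOLIM4 (0.71), FUBP3 (0.74), ACSL4 (0.77) and BLZF1 (0.81). SDHAF3 ran from 142 and 344 on the controls to 1766 and 1467. With 4 points per gene such likeness is a description only.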

How the data were processed

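RNA from T84 cultures was measured on Affymetrix U133 Plus 2.0 arrays, 1 for each of 4 groups, per the labels. The authors deposited 1 intensity per probe set and array, made with MAS5 according to the submitters' processing notes. For MAS5 the version and the scaling target were not given in the sources used here. All arrays were brought to 1 trimmed mean (500, with 2% left out at each end), 32 was added and log2 taken, in Python 3.11.15 with numpy 2.4.6 and pandas 2.3.3; the steps were tested on simulated data. Of 54675 probe sets 41097 had 1 gene symbol, 1801 several (left out) and 11777 none; 41043 matched the RefSeq table by gene ID. With no replicates no test could be run, genes at least 2-fold apart were counted, and precision is limited by the number of arrays. A value under its array's median was set to that median and the fold given as "at least". All member probe sets are reported, as are the members of each list at least 2-fold apart (up to 4 per comparison with the day 5 control or between the miRNA arrays, largest first), 5 nearest patterns of ITGB1 and of the member with the widest range, and further list members as context, chosen after their values were seen. The members, lists and rules were chosen with earlier results of these data known. Tried as alternatives were quantile normalization, running-median centring, pseudocounts of 8 and 100, other filters, the median over probe sets, probe sets ending in _at, and, after seeing the data, a filter or probe set taken from the controls.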

Additional observations from a re-analysis of the deposited data

How the results depend on the processing

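No paired analysis was possible because each group had 1 array, and for the same reason no array could be left out of a group. With quantile normalization, running-median centring or a pseudocount of 8, no count of integrin genes or probe sets past 2-fold moved by more than 1.5 times, but running-median centring moved the integrin medians to 0.70 and 0.66 against day 5 and to 0.50 and 0.46 against day 7. Taking the probe set brightest on the controls turned ITGA2 to −0.32 and −0.28 against the day 5 control (2 and 4 miRNAs) and to −0.29 and −0.25 against day 7, and ITGA6 to −0.56 and −0.71 and to −0.11 and −0.26. The count of integrin genes past 2-fold higher was then 2 in each of these 4 comparisons (7.03% and 6.91% of all genes against day 5, 5.2% and 4.62% against day 7), and the median with 2 miRNAs −0.32 against day 5. With the filter taken from the controls as well, the count was 1 in each of the 4 (5.95%, 5.84%, 4.19% and 3.74% of all genes), the median −0.34, and the same values of ITGA2 and ITGA6 held. The median over a gene's probe sets left 2 genes at least 2-fold higher for 4 miRNAs against either control (5.83% and 3.88% of all genes) and for 2 miRNAs against day 7 (4.53%). Probe sets ending in _at alone left 5 genes, with medians of 1.77 and 1.74 against day 5 and 1.44 and 1.23 against day 7. Between the controls, ITGB8 was no longer counted (0 genes, 0 probe sets) with a pseudocount of 100, a filter at the median of every array or the filter on the controls (0 genes also with both choices from the controls), and under the first 3 and with _at alone 0 probe sets were higher with 4 than with 2 miRNAs. With no filter, 2 and 3 dim probe sets were at least 2-fold lower with 2 and 4 miRNAs against either control (9.74% and 9.88% of all probe sets against day 5, 8.41% and 8.57% against day 7), 1 between the miRNA arrays (3.99%) and 2 between the controls (7.66%), where 2 were higher (8.03%). Low signal limits ITGB8 on the day 5 control and the 12 probe sets not kept.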
